A study of Mus musculus with 2 samples.

Results

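Dppa2, Dppa3, Dppa4, Dppa5a, Lin28a, Sall4, Zscan10, Tdh, Fbxo15 and Utf1 are 10 genes associated with mouse embryonic stem (ES) cells, read here in ES cell clones with and without an Oct4 transgene. They are 10 of 31896 gene names on the array and are covered by 17 of its 39429 probes. Members were taken as every non-control probe whose gene name is on this list, and they were chosen by the log2 ratios and channel levels of these same arrays, in which some kept a high reading without Oct4 and others did not. The ratios below therefore describe a choice already made from them. The files give Lin28a under the older name Lin28, and its accession identifies it as Lin28a.

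All 3 clones were made in ZHBTc4, an ES cell line in which both endogenous Oct4 alleles are disrupted and Oct4 comes from a transgene that doxycycline shuts off. The Nr5a2-EGFP clone (clone #26) carries pCAG-IP/Nr5a2-EGFP, the Oct4-EGFP clone (clone #9) carries pCAG-IP/Oct4-EGFP, and the EGFP clone (clone #2-5) carries pCAG-IP/EGFP. The CAG promoter is active in most cell types. Each clone is a single monoclonal line, and every group was treated with doxycycline before harvest, so the Oct4-EGFP clone is the only one meant to keep Oct4 and the EGFP clone is the one with neither factor. The sources used here do not say for how long doxycycline was present. Cells were grown without feeders on gelatin in 15% serum with 1000 IU/ml LIF. RNA was labelled from an oligo-dT primer and hybridised to 2 two-colour Agilent arrays: the Nr5a2-EGFP clone in Cy5 on both, against the EGFP clone in Cy3 on the EGFP array and the Oct4-EGFP clone in Cy3 on the Oct4 array.

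ES cell identity rests on a circuit around Oct4 (Pou5f1), Sox2 and Nanog. Many genes used as ES cell markers are wired into it through paired Oct4 and Sox2 sites, and Fbxo15 and Utf1 are textbook examples. Others on the list serve the chromatin of early embryos and germ cells (Dppa2, Dppa3, Dppa4), block maturation of the let-7 microRNA (Lin28a), supply 1-carbon units from threonine (Tdh) or bind DNA with zinc fingers (Sall4, Zscan10). Mouse ES cells that lose Oct4 turn towards trophectoderm, the outer layer of the blastocyst, and Nr5a2 is an orphan nuclear receptor that binds the Oct4 gene in ES cells.

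With 1 array per pair of clones there is no replicate and no test, and a 2-fold difference, a log2 ratio of 1 or more or of -1 or less, is used as a rule of size. Clone, dye and gene-specific dye effects cannot be told apart in the direct ratios, since no dyes were swapped, and the arrays share a slide and a scan. The Oct4-EGFP to EGFP comparison is the difference between the log2 ratios of the arrays, with Cy3 levels alone as the alternative, and all comparisons share readings. The only repeat is the Cy5 channel, which held the Nr5a2-EGFP clone each time: its readings correlated at r = 0.994 across 24571 genes (genes are not independent replicates), and the SD of their log2 difference over 25505 genes was 0.30. The labels name no separate extracts of it, so this spread may be technical. Spots of the same probe, printed 10 times for 399 probes, had a median SD of 0.068 on the EGFP array and 0.066 on the Oct4 array.

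The label of the Oct4-EGFP clone could be checked only in part. The Pou5f1 probe read 28.8 in the Nr5a2-EGFP clone (a spot not well above background) and 116 in the Oct4-EGFP clone on the Oct4 array, against 104 in the Nr5a2-EGFP clone and 118 in the EGFP clone on the EGFP array. The log2 ratio of Oct4-EGFP over EGFP was 0.78, while Cy3 levels alone differed by -0.02. Nr5a2-EGFP over Oct4-EGFP was -0.90 and Nr5a2-EGFP over EGFP -0.12. All were under 2-fold, and where this probe lies relative to the transgene was not examined, so it neither bears out nor contradicts the labels. Of the 6 ES cell markers, by their brightest probes, 4 were at least 2-fold higher in Oct4-EGFP than in EGFP, while Nanog, saturated in Oct4-EGFP, had -0.19. A dimmer Nanog probe, taken without the filter on background, had 2.12 there and 1.70 for Nr5a2-EGFP over EGFP. The direction of Nanog between these clones thus depends on the probe. The processed signals of Nanog, Sox2, Klf4, Esrrb, Zfp42 and Pou5f1 summed to 58102 in the Nr5a2-EGFP clone and 164808 in the Oct4-EGFP clone on the Oct4 array, and to 77338 in the Nr5a2-EGFP clone and 128200 in the EGFP clone on the EGFP array, where Nanog gave most of the sum (59608 in the Nr5a2-EGFP clone and 105648 in the EGFP clone). For 9 trophoblast markers the sum was 76129 in the Nr5a2-EGFP clone and 20841 in the Oct4-EGFP clone on the Oct4 array, and 93966 in the Nr5a2-EGFP clone and 87754 in the EGFP clone on the EGFP array. By the 2-fold rule, 6 of the 9 were lower in Oct4-EGFP than in EGFP, and Elf5 was not well above background in any channel. The sum of 7 primitive endoderm markers was 10583 in the Nr5a2-EGFP clone and 28640 in the Oct4-EGFP clone, where Lama1 gave most of it, and 10378 in the Nr5a2-EGFP clone and 10491 in the EGFP clone on the EGFP array. Sox7 was not well above background in any channel. These marker levels move with the clones compared for every gene below, and their part in the ratios was not tested. In RNA from whole cultures, fewer cells of a type and less RNA per cell cannot be told apart.

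All 17 probes were well above background in all 4 channels, so every gene on the list gave a reading in every clone. The list split evenly around the Oct4-EGFP clone. In 5 genes (Dppa2, Dppa3, Lin28a, Sall4 and Zscan10) the Oct4-EGFP clone had the lowest level of the 4 channels, and in the other 5 (Dppa4, Dppa5a, Tdh, Fbxo15 and Utf1) it had the highest. The Nr5a2-EGFP readings both lay between the Oct4-EGFP and EGFP clones in 7 genes, and below both in Dppa5a and Fbxo15. Sall4 is counted among the 7, but its probe was saturated in EGFP and in both Nr5a2-EGFP channels, so their order is not settled. Its unsaturated probes put Nr5a2-EGFP above EGFP, at 0.50 and 1.01. The repeat readings were apart by less than their overall SD in 8 genes, and by more in Tdh (0.63) and Fbxo15 (0.34). For the first set this order holds on the probe used for each gene, and Dppa3 stayed under 2-fold (-0.85 for Oct4-EGFP over EGFP). Other probes were mixed in that comparison: Dppa2 had -1.04 and Sall4 -2.00, but a further Sall4 probe had 0.03 and Zscan10 -0.20. Because these levels chose the genes and each clone is a single line, the order is a description only. Whether it follows from Oct4 was not tested.

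**Figure D1:**
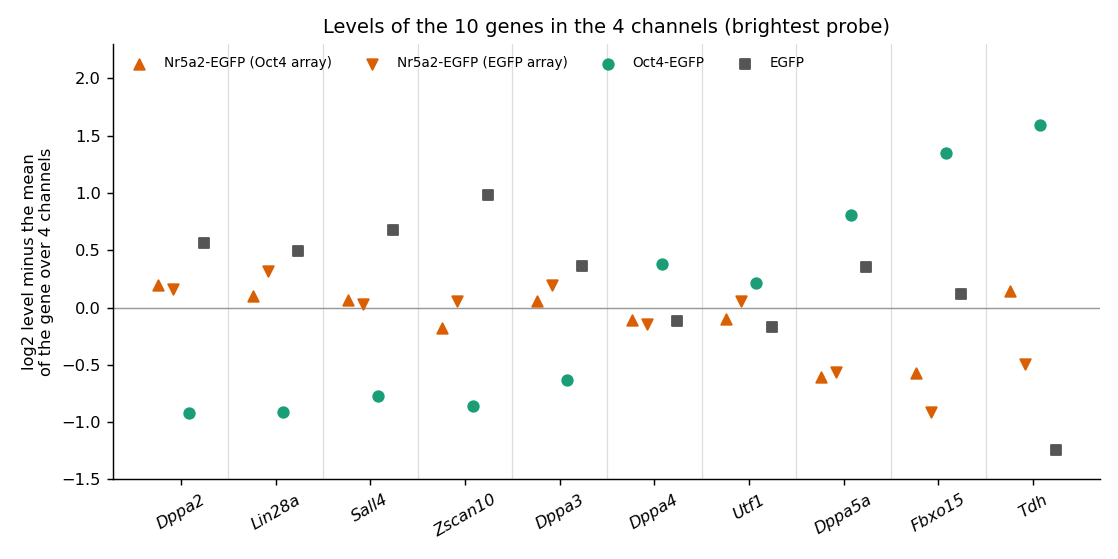
Log2 levels of the brightest probe of each gene after normalization, centred on the gene's own mean over the channels, for the Nr5a2-EGFP clone (read on both arrays), the Oct4-EGFP clone and the EGFP clone; each point is 1 channel. The Oct4-EGFP clone lies lowest for Dppa2, Dppa3, Lin28a, Sall4 and Zscan10 and highest for Dppa4, Dppa5a, Tdh, Fbxo15 and Utf1.

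Dppa2 and Dppa4 encode chromatin proteins with SAP domains that work as a heterodimer and lie next to each other on chromosome 16. They did not behave alike: Dppa2 was over 2-fold lower with Oct4-EGFP than with EGFP, and Dppa4 was within 2-fold everywhere. The opening bases of the brighter Dppa2 probe are shown because this gene leads the set that read lowest with Oct4-EGFP. The brightest Dppa4 probe is shown whole for contrast with its neighbour. In mm9 these probes lie at chr16:48319381-48319440 (plus strand) and chr16:48291368-48291427 (plus strand).
Dppa2: accacttagccagtactgatgtatgtttga
Dppa4: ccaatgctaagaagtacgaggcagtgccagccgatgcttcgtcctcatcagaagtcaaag

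Dppa2 read 8222 in the Nr5a2-EGFP clone and 3740 in the Oct4-EGFP clone on the Oct4 array, and 9828 in the Nr5a2-EGFP clone and 13109 in the EGFP clone on the EGFP array. The Oct4-EGFP clone is the low one, and the EGFP clone the high one. Its log2 ratio was 1.11 for Nr5a2-EGFP over Oct4-EGFP (2.16-fold higher), -1.51 for Oct4-EGFP over EGFP (2.85-fold lower) and -0.40 for Nr5a2-EGFP over EGFP. The scanner software's own error model gave 1.14 ± 0.23, -1.55 ± 0.31 and -0.42 ± 0.21 for these. A dimmer Dppa2 probe, whose coordinates run over a gap of the genome (chr16:48317579-48318787, a span of 1209 bases for 60 bases of probe), read 582 in the Nr5a2-EGFP clone and 291 in the Oct4-EGFP clone, and 614 in the Nr5a2-EGFP clone and 739 in the EGFP clone. It gave the same order of clones, with ratios of 0.76 over Oct4-EGFP, -1.04 for Oct4-EGFP over EGFP and -0.28 over EGFP.

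Dppa4 read 7513 in the Nr5a2-EGFP clone and 10597 in the Oct4-EGFP clone, and on the other array 8915 in the Nr5a2-EGFP clone and 8969 in the EGFP clone. No pair of clones reached 2-fold. The log2 ratios were -0.49 over Oct4-EGFP, 0.47 for Oct4-EGFP over EGFP and -0.02 over EGFP. A second probe (chr16:48293216-48293867) gave -0.40, 0.30 and -0.10 for these comparisons, in the same directions, while the third (chr16:48294346-48294405) gave 0.57, -0.10 and 0.46, with the signs turned. The direction of Dppa4 thus depends on the probe, but all of its 3 probes stayed under 2-fold, including in the clone where Dppa2 is 2.85-fold lower. Dppa3 (Stella, PGC7), which shields the maternal genome of the zygote from loss of DNA methylation, is the remaining gene of this chromatin set. Its probe lies at chr6:122580207-122580266 (plus strand) and holds AATAAA, the common polyadenylation signal, in capitals here because labelling started from the poly(A) tail.
Dppa3: ccagggctgaggAATAAAgtaaatagaatt

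Dppa3 read 616 in the Nr5a2-EGFP clone and 332 in the Oct4-EGFP clone, and 730 in the Nr5a2-EGFP clone and 801 in the EGFP clone on the EGFP array. It followed the order of Dppa2 with smaller differences. The log2 ratio was 0.69 over Oct4-EGFP, -0.85 for Oct4-EGFP over EGFP and -0.16 over EGFP, all inside 2-fold. Of the alternatives, the software's ratio put Oct4-EGFP over EGFP at -1.02 ± 0.30, just outside it.

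Lin28a encodes an RNA-binding protein that blocks the maturation of let-7. Its only probe (chr4:133559245-133559304, minus strand) also holds the AATAAA hexamer, in capitals.
Lin28a: cttccctgggaaAATAAAgacttattggta

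Lin28a read 5461 in the Nr5a2-EGFP clone and 2610 in the Oct4-EGFP clone on the Oct4 array, and 7667 in the Nr5a2-EGFP clone and 8466 in the EGFP clone on the EGFP array. As for Dppa2, the Oct4-EGFP clone is low and the others are close together. Nr5a2-EGFP over Oct4-EGFP was 1.02 (2.02-fold higher), a hair inside the rule of size, with a software value of 1.07 ± 0.23. Oct4-EGFP over EGFP was -1.18 (2.27-fold lower), and -1.40 by Cy3 levels alone. Nr5a2-EGFP over EGFP was -0.17, which is within the SD of the repeat readings.

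Sall4 encodes a zinc finger protein that binds other core factors of the ES cell and recruits the NuRD deacetylase. Its 3 probes all lie on the minus strand of chromosome 2 and gave 3 different pictures, so their sequences are shown from the most 3′ to the most 5′ on the gene's strand: chr2:168574333-168574392 (opening bases), chr2:168578172-168578231 and chr2:168580437-168580496 (both whole).
Sall4 probe at 168574333: tgcgaccacccaagtattgccaggtcttaa
Sall4 probe at 168578172: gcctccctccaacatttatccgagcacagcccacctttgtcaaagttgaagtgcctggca
Sall4 probe at 168580437: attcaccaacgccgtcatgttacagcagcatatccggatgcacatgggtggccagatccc

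The most 3′ Sall4 probe is the brightest and is used for the gene. It read 45886 in the Nr5a2-EGFP clone and 29568 in the Oct4-EGFP clone, and 57861 in the Nr5a2-EGFP clone and 106247 in the EGFP clone, saturated in all but the Oct4-EGFP channel. Its ratios are therefore limited by saturation. After loess, the log2 ratio of Nr5a2-EGFP over Oct4-EGFP was 0.84 (1.79-fold higher), a lower bound within this normalization only. By Cy3 levels after Aquantile, Sall4 was at least 2.74-fold lower in Oct4-EGFP than in EGFP (-1.45 on the log2 scale), again within this normalization. The difference between the arrays' log2 ratios was -1.49. The first bound depends on the normalization, since the software's log2 ratio was 0.63 ± 0.21. Between the Nr5a2-EGFP and EGFP clones, both saturated, no fold is given.

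The middle Sall4 probe was unsaturated and under 2-fold in every comparison. It read 2575 and 1786 in the Nr5a2-EGFP and Oct4-EGFP clones, and 2753 and 1907 in the Nr5a2-EGFP and EGFP clones. Its ratios were 0.46 over Oct4-EGFP, 0.03 for Oct4-EGFP over EGFP and 0.50 over EGFP. The most 5′ probe had the largest ratios: it read 1355 in the Nr5a2-EGFP clone and 93.7 in the Oct4-EGFP clone, and 1688 in the Nr5a2-EGFP clone and 759 in the EGFP clone. That is a log2 ratio of 3.01 (8.05-fold higher) over Oct4-EGFP, -2.00 for Oct4-EGFP over EGFP (4.01-fold lower) and 1.01 over EGFP. With the mean over the 3 probes in place of the brightest, Sall4 had 1.44 over Oct4-EGFP, -1.16 for Oct4-EGFP over EGFP and 0.28 over EGFP, the last against -0.65 measured on the saturated probe. The low level in the Oct4-EGFP clone relative to EGFP was thus seen on the outer probes and not on the middle one.

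Zscan10 (Zfp206) encodes a SCAN-domain zinc finger factor of ES cells. Its probes lie on the plus strand at chr17:23747920-23747979 (the brighter, opening bases shown) and chr17:23746601-23746660 (whole), and they too disagreed.
Zscan10 probe at 23747920: cccacagtttacctcttcccttgactccaa
Zscan10 probe at 23746601: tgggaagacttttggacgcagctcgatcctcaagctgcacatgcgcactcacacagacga

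Zscan10 read 415 in the Nr5a2-EGFP clone and 219 in the Oct4-EGFP clone, and 545 in the Nr5a2-EGFP clone and 1111 in the EGFP clone, on the brighter probe. The EGFP clone stands above both others. Oct4-EGFP over EGFP was -1.60 (3.04-fold lower), the lowest of the list by the probe used for each gene, Nr5a2-EGFP over Oct4-EGFP was 0.68, and Nr5a2-EGFP over EGFP was -0.92. The dimmer probe read 98.9 in the Nr5a2-EGFP clone and 134 in the Oct4-EGFP clone, and 128 in the Nr5a2-EGFP clone and 230 in the EGFP clone. Its ratios were -0.34, -0.20 and -0.54 for Nr5a2-EGFP over Oct4-EGFP, Oct4-EGFP over EGFP and Nr5a2-EGFP over EGFP, so only the sign of the first was turned, and none reached 2-fold. With the mean of both probes Oct4-EGFP over EGFP was -0.90.

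**Figure D2:**
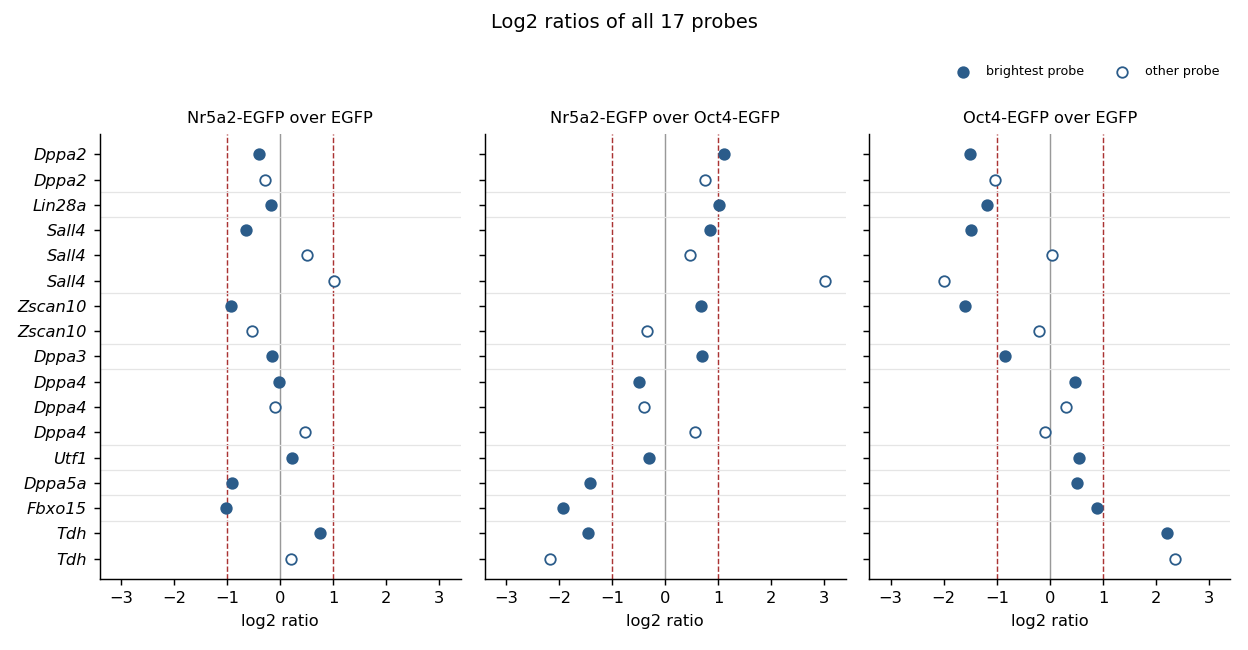
Log2 ratios of all 17 probes of the 10 genes in each of the 3 comparisons, 1 point per probe, with the probe used for the gene and its other probes marked apart; dashed lines mark 2-fold. The spread among probes is widest for Sall4, whose log2 ratios of Oct4-EGFP over EGFP run from -2.00 to 0.03, while the Tdh probes gave 2.20 and 2.36 in that comparison but -1.45 and -2.16 for Nr5a2-EGFP over Oct4-EGFP.

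Tdh encodes the mitochondrial threonine dehydrogenase, on which mouse ES cells depend for growth in culture. By the probe used for each gene, its ratio of Oct4-EGFP over EGFP was the largest of the list. The probes, at chr14:64111327-64111386 and chr14:64111366-64111425 on the minus strand, share the 21 bases at chr14:64111366-64111386 and so are not independent readings.
Tdh shared bases: cacaaaggccagagaaatgaa

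Tdh read 4548 in the Nr5a2-EGFP clone and 12739 in the Oct4-EGFP clone on the Oct4 array, and 3507 in the Nr5a2-EGFP clone and 2048 in the EGFP clone on the EGFP array. The clones fall in the order Oct4-EGFP, Nr5a2-EGFP, EGFP. The log2 ratio was -1.45 over Oct4-EGFP (2.74-fold lower), 2.20 for Oct4-EGFP over EGFP (4.61-fold higher) and 0.75 over EGFP. By Cy3 levels alone Oct4-EGFP over EGFP was 2.83 (7.11-fold), and software values were -1.49 ± 0.25, 2.26 ± 0.33 and 0.78 ± 0.22. The Nr5a2-EGFP readings of Tdh were 0.63 apart, more than for any other gene of the list. Its standing against EGFP thus depends on the reading used: 0.75 on the EGFP array and 1.37 with the reading of the Oct4 array. The dimmer probe read 1601 and 7150 in the Nr5a2-EGFP and Oct4-EGFP clones, and 1218 and 1020 in the Nr5a2-EGFP and EGFP clones, with ratios of -2.16, 2.36 and 0.20.

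Dppa5a (Esg1) encodes a KH-domain RNA-binding protein of ES and early germ cells. Its probe (chr9:78214866-78214925, minus strand) ends in repeated AATAAA, of which the last copy is in capitals.
Dppa5a: ccactctaaataaaaAATAAAattgaagtg

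Dppa5a read 24504 in the Nr5a2-EGFP clone and 77593 in the Oct4-EGFP clone, where the spot was saturated, and 32525 in the Nr5a2-EGFP clone and 69201 in the EGFP clone. The Nr5a2-EGFP clone is the low one on both arrays. Dppa5a was at least 2.68-fold lower in Nr5a2-EGFP than in Oct4-EGFP (measured log2 ratio -1.42), a bound within this normalization only. With median centring in place of loess the log2 ratio was -1.24. Against EGFP it was -0.91, or -1.09 ± 0.23 by the software. Oct4-EGFP over EGFP was 0.51, and at least 1.37-fold higher by Cy3 levels. Whether Dppa5a is low wherever Oct4 is absent cannot be told from these readings. The measured difference between the Oct4-EGFP and EGFP clones was under 2-fold, but with the Oct4-EGFP side saturated it is a lower bound. The low reading was that of the Nr5a2-EGFP clone.

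Utf1, a chromatin-bound factor and a classical target of Oct4 and Sox2, was close to level across the clones. Its probe lies at chr7:147130950-147131009 (plus strand) and is shown for its AATAAA, in capitals.
Utf1: ggttcttaccaaAATAAAgattgtgttttc

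Utf1 read 2288 in the Nr5a2-EGFP clone and 2860 in the Oct4-EGFP clone, and 3021 in the Nr5a2-EGFP clone and 2558 in the EGFP clone. No ratio reached 2-fold. Nr5a2-EGFP over Oct4-EGFP was -0.31, Oct4-EGFP over EGFP 0.54 and Nr5a2-EGFP over EGFP 0.23. The AATAAA hexamer was searched as these letters on the probe strand. It is in 4 of the 17 probes of the list (23.5%) and in 4965 of all 39429 probes (12.6%), while its reverse complement TTTATT is in 4.03% of probes. The genes that hold it (Dppa3, Dppa5a, Lin28a and Utf1) fall on both sides of the split.

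Fbxo15, an F-box protein gene whose promoter was used as a reporter when fibroblasts were first reprogrammed to pluripotency, has 1 probe at chr18:85150693-85150752 (plus strand). It read 324 in the Nr5a2-EGFP clone and 1357 in the Oct4-EGFP clone, and 254 in the Nr5a2-EGFP clone and 590 in the EGFP clone. The Nr5a2-EGFP clone is the lowest on both arrays. Nr5a2-EGFP over Oct4-EGFP was -1.92 (3.8-fold lower), the lowest in that comparison by the probe used for each gene, with a software value of -2.07 ± 0.28. Nr5a2-EGFP over EGFP was -1.03 (2.05-fold lower) but -0.69 with the other reading. Oct4-EGFP over EGFP was 0.89, inside 2-fold, and 1.23 (2.35-fold higher) by Cy3 levels alone. Fbxo15 is thus further down in the Nr5a2-EGFP clone than in the EGFP clone, each against Oct4-EGFP.

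By the rule of size, Nr5a2-EGFP over Oct4-EGFP put Dppa2 and Lin28a at least 2-fold higher (2 of 10 genes, where 4.54% of 26095 genes were) and Dppa5a, Tdh and Fbxo15 at least 2-fold lower (3 of 10, against 7.11% of genes). Oct4-EGFP over EGFP put Tdh at least 2-fold higher (1 of 10, against 6.48% of 26340 genes) and Dppa2, Lin28a, Sall4 and Zscan10 lower (4 of 10, against 5.85%). Nr5a2-EGFP over EGFP put none higher (3.34% of 25997 genes were) and Fbxo15 lower (5.07% were). With the Nr5a2-EGFP reading of the other array, 1 of 10 was higher over EGFP (Tdh, against 4.87% of genes) and 1 lower (Zscan10, 6.51%), and the same 2 were higher (6.29%) and the same 3 lower (8.62%) over Oct4-EGFP. By Cy3 levels alone, Tdh and Fbxo15 were higher in Oct4-EGFP (2 of 10, against 8.67%), and the same 4 were lower (7.79%). Since these ratios chose the list, nothing is read from its shares.

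The median log2 ratio was 0.19 over Oct4-EGFP (0.01 over all genes), -0.19 for Oct4-EGFP over EGFP (0.02) and -0.28 over EGFP (0.03). The 10 genes ran from -1.92 to 1.11 over Oct4-EGFP, from -1.60 to 2.20 for Oct4-EGFP over EGFP and from -1.03 to 0.75 over EGFP, and since they were chosen for differing, these ranges are a description only. Just past the threshold were Lin28a (1.02) and Dppa2 (1.11) over Oct4-EGFP and Fbxo15 over EGFP (-1.03). Just short of it were Zscan10 (-0.92) and Dppa5a (-0.91) over EGFP, and Fbxo15 (0.89) and Dppa3 (-0.85) for Oct4-EGFP over EGFP. Sall4 had 0.84 over Oct4-EGFP, but with a saturated Nr5a2-EGFP spot that value is a lower bound. Between the Nr5a2-EGFP and EGFP clones, the ratios of Dppa3, Dppa4, Lin28a and Utf1 were smaller than the SD of 0.30 between repeat readings, which is measured within Cy5 and does not cover the dyes.

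**Figure D3:**
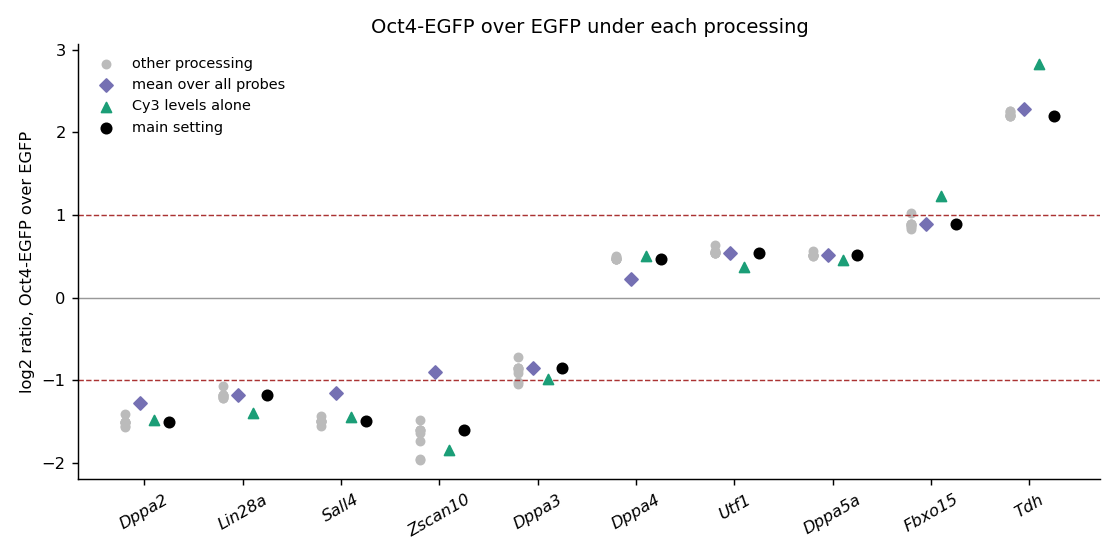
Log2 ratio of Oct4-EGFP over EGFP for each gene with the processing used here (black), with the mean over all probes, with Cy3 levels alone and with every other processing tried (grey); dashed lines mark 2-fold. No gene changed sign, the marks are widest apart for Zscan10 (-1.96 to -0.90) and Tdh (2.20 to 2.83), and the marks of Zscan10, Fbxo15 and Dppa3 lie on both sides of a dashed line.

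The pathway partners of the list were followed through 12 lists of 10 to 30 genes, also drawn up with earlier results known. The let-7 pathway list holds targets of let-7, genes of microRNA processing and Lin28b, so it is not a readout of Lin28a alone. It had a median of 0.28 over Oct4-EGFP, with 5 of 20 genes at least 2-fold higher and 3 lower. The same genes had a median of -0.26 for Oct4-EGFP over EGFP, with 1 higher and 7 lower, while over EGFP 0 of 19 were higher and 1 was lower (Ccnd1, a cyclin of G1, at -2.34; median -0.09). Well-known let-7 targets were among those that were low in the Oct4-EGFP clone: Hmga2 had 1.60 over Oct4-EGFP and -1.70 for Oct4-EGFP over EGFP, Igf2bp1 1.56 and -1.63, Arid3a 1.34 and -1.74, and Myc 1.66 and -1.20. Dgcr8, a partner of Drosha in microRNA processing, had 1.14 and -1.94. Nras went the other way, at 1.04 for Oct4-EGFP over EGFP. RNA of let-7 itself was not analysed here.

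Neighbours of Tdh in threonine, glycine and serine metabolism mostly stayed within 2-fold. Of 16 measured, 0 were at least 2-fold higher or lower for Oct4-EGFP over EGFP (median 0.44), and 1 was lower over Oct4-EGFP (median -0.43). That gene is Gcat, which encodes the next enzyme after Tdh in threonine breakdown, at -1.42. Gldc of the glycine cleavage system had -0.91 over Oct4-EGFP, and Mat2a, which makes S-adenosylmethionine, had 0.80. Over EGFP 1 of the 16 was lower (Gcsh, -1.05; median -0.10).

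SCF ubiquitin ligase genes, the machinery that F-box proteins such as Fbxo15 join, were mostly flat. Of 11, only the scaffold Cul1 passed 2-fold, at 1.25 over Oct4-EGFP and -1.03 for Oct4-EGFP over EGFP (medians 0.26 and -0.40), and none passed over EGFP (median 0.12). Among 11 genes of NuRD and other Sall4 partners, Rbbp7 was higher over Oct4-EGFP (2.07) while Hdac2 (-1.13) and Mta1 (-1.24) were lower, with a median of 0.24. For Oct4-EGFP over EGFP Hdac2 was higher (1.06) and Mta3 (-1.75) and Rbbp7 (-1.10) lower (median -0.17), and over EGFP none of the 11 passed (median -0.07). Of 10 PRC2 genes, the complex that lays down the repressive mark at bivalent promoters, Rbbp7, which is on this list too, alone passed in the comparisons with Oct4-EGFP. Medians were 0.41 over Oct4-EGFP, -0.32 for Oct4-EGFP over EGFP and 0.07 over EGFP, where none passed.

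Close relatives of the list did not follow their counterparts in every case. Lin28b had -1.05 over Oct4-EGFP, opposite in sign to Lin28a, but its Nr5a2-EGFP spot did not stand well above background. Sall1 had -1.46 for Oct4-EGFP over EGFP, on the same side as the brightest Sall4 probe, and -1.01 over EGFP, while Sall2 had 0.38 and -0.03. Khdc3, a KH-domain relative of Dppa5a, had -2.43 for Oct4-EGFP over EGFP and -2.88 over EGFP. In all, 0 of 10 relatives were higher and 2 lower over Oct4-EGFP (median -0.02), 0 of 9 higher and 3 lower for Oct4-EGFP over EGFP (-0.08), and 0 of 8 higher and 3 lower over EGFP (-0.37, but -0.03 with no filter on background).

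The list can be set beside the pluripotency transcription factors and the trophoblast genes. Of 20 factors, 0 were at least 2-fold higher and 13 lower over Oct4-EGFP (median -1.80), and 12 higher and 0 lower for Oct4-EGFP over EGFP (median 1.45). Esrrb had -3.72 and 1.42. Nr0b1 had -3.25 and 3.65, the value of 3.65 being set against an EGFP spot not well above background. With the other Nr5a2-EGFP reading and with Cy3 levels alone, Esrrb had -5.17 and 2.87 and Nr0b1 -4.67 and 5.07. The sizes of these ratios thus depend on the reading used, though their directions do not. Of 19 trophoblast genes, 15 were higher and 0 lower over Oct4-EGFP (median 2.04), and of 18, 0 were higher and 15 lower for Oct4-EGFP over EGFP (median -2.07), with Cdx2 at 4.48 and -4.83. No trophoblast gene is on another list, and 18 were well above background in the Oct4-EGFP clone. Against EGFP, by contrast, 1 factor of 18 was higher and 1 lower (median -0.15), and 2 trophoblast genes of 18 were higher and 1 lower (median -0.15). By sign on the probe used for each gene, Tdh, Fbxo15, Dppa5a, Dppa4 and Utf1 lay on the side of the factors. Dppa2, Dppa3, Lin28a, Sall4 and Zscan10 lay on the side of the trophoblast genes, with smaller ratios than Cdx2. On those probes, only Tdh, Dppa2 and Lin28a reached 2-fold in both comparisons. For Sall4 the value over Oct4-EGFP (0.84) is a lower bound, its Nr5a2-EGFP spot being saturated. The most 5′ Sall4 probe passed in both (3.01 and -2.00) and the middle one in neither (0.46 and 0.03). Other probes of Zscan10 (-0.34) and Dppa4 (0.57) had the opposite sign over Oct4-EGFP. Since the genes were chosen by these ratios, their sides are a description only. A further 30 ES cell genes gave 1 higher and 3 lower over Oct4-EGFP (median -0.26), 4 higher and 2 lower for Oct4-EGFP over EGFP (0.20), and 1 higher and 1 lower over EGFP (-0.07). They held both directions: Zfp57, which keeps imprints, had -2.07 and 2.06, and Dnmt3l, a cofactor of DNA methylation, had 1.79 and -1.30, over Oct4-EGFP and for Oct4-EGFP over EGFP.

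**Figure D4:**
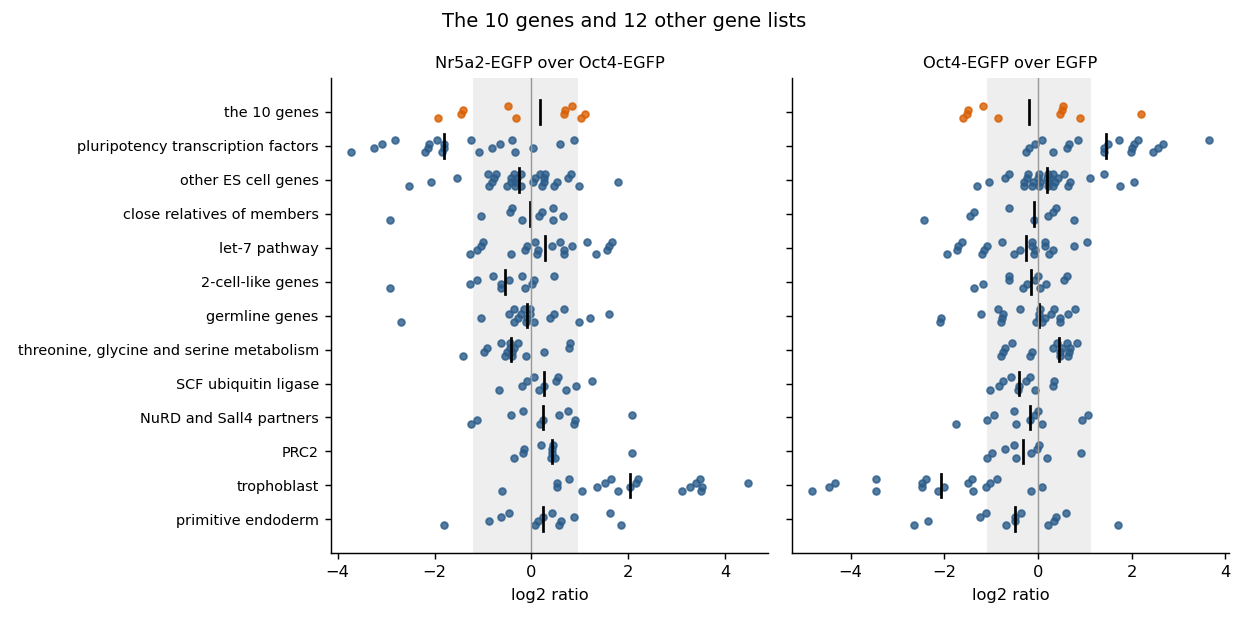
Log2 ratios of the 10 genes described here (orange) and of the genes of the 12 lists (blue), 1 point per gene, for Nr5a2-EGFP over Oct4-EGFP and for Oct4-EGFP over EGFP; black bars are medians and the grey band spans the 5th to 95th percentile of all genes. The 10 genes lie on both sides of 0, while the pluripotency transcription factors (median 1.45) and the trophoblast genes (median -2.07) lie mostly on opposite sides for Oct4-EGFP over EGFP.

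Genes used as loading references were not level, which gives a scale for single-gene ratios. Actb had 1.44 over Oct4-EGFP and -1.77 for Oct4-EGFP over EGFP, past the ratios of Dppa2 (1.11 and -1.51). By Cy3 levels alone Actb had -0.94, short of the -1.48 of Dppa2. Its Nr5a2-EGFP signal on the Oct4 array (55319) was above that of the saturated Sall4 spot (45886), so it may be capped too. Over Oct4-EGFP and for Oct4-EGFP over EGFP, Gapdh had 0.01 and 0.58, Hprt 0.28 and -0.38, and Tbp 0.44 and -0.35. Over EGFP, Actb, Gapdh, Hprt and Tbp had -0.33, 0.59, -0.10 and 0.09.

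The genes beside the list on the chromosome did not share its pattern as a rule. Flanking protein-coding genes were taken in order from RefSeq (GRCm38.p6). Of the 18 flanking genes, 16 had a ratio for Oct4-EGFP over EGFP, 1 of them at least 2-fold higher and 0 lower, with a range of -0.82 to 1.89. Over Oct4-EGFP, 1 of 16 was higher and 3 lower, and over EGFP 1 of 14 higher and 1 lower. Morc1, next to Dppa2 on the side away from Dppa4, had -1.67 over Oct4-EGFP, where Dppa2 had 1.11, and -1.37 over EGFP. Dppa3 lies between Gdf3 (0.04 over Oct4-EGFP) and Nanog (-0.41), neither near its 0.69 by the brightest probes. Nanog was saturated in both channels of that comparison, and a dimmer Gdf3 probe had -2.93. Beside Lin28a, Dhdds had 1.33 over Oct4-EGFP and Crybg2 -1.89, on opposite sides of it. Neither gene beside Tdh came near it for Oct4-EGFP over EGFP, with Fam167a at 0.46 and Mtmr9 at -0.82.

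Profiles over the 4 channels were compared by Euclidean distance among 22621 genes that were unsaturated and well above background in all channels, as a description over 4 readings that share arrays and a clone. Nearest to Dppa2 were Asb9 (0.06), Slf1 (0.07), Yap1 (0.08), 4930535I16Rik (0.09) and 1700019A02Rik (0.10). Among the list, Lin28a was nearest to Dppa2 (0.20, rank 62), followed by Dppa3 (0.38, rank 375) and Zscan10 (0.57, rank 1132). Nearest to Tdh were Pcdhga9 (0.14), ENSMUST00000100469 (0.21), Tubb2a-ps2 (0.23), ENSMUST00000088041 (0.23) and D130017N08Rik (0.28). Fbxo15 was the nearest of the list to Tdh, but at a distance of 1.61 and rank 2972, since the Nr5a2-EGFP clone lies above EGFP for Tdh and below it for Fbxo15. Sall4 and Dppa5a, with saturated channels, were not among the genes compared.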

How the data were processed

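Both arrays were deposited as spot intensities read with Agilent Feature Extraction, which the file headers give as 10.7.3.1 and the submitters' processing notes as 9.3.2.1. The processed intensity is already corrected for background and dye, per the file headers. Beside it the authors deposited the software's log10 ratio (Cy5 to Cy3), the error of that ratio, a score of its error model, and flags for saturation and background. The authors' deposited table of log2 ratios followed the software's ratio at r = 0.997 on both arrays (medians 0.03 and 0.05). Its centring and scale are not given in the sources used here. Probe coordinates are mm9 per the file headers.

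From mean and background signals, normexp (offset 50) and loess were run in limma 3.58.1 (R 4.3.3), then Aquantile for levels of single channels. Control spots and outlier spots (530 for the EGFP array and 523 for the other) did not enter the ratios, and saturated spots were kept. The brightest probe stood for a gene, which was counted in a comparison when any channel of it was well above background. Where 1 side was saturated the fold is a bound, taken from the channel levels, which holds for this normalization only and, between dyes, is open to dye bias. Ratios are log2; processed signals are the software's, on a linear scale. Accessions of 26055 probes (66.1%) matched RefSeq. The steps were tested on simulated arrays. The number of arrays limits the precision.

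Members and gene lists (pluripotency transcription factors, other ES cell genes, close relatives, let-7 pathway, 2-cell-like, germline, threonine metabolism, SCF, NuRD, PRC2, trophoblast, primitive endoderm) were chosen with earlier results of these data known. Named genes are all members, Pou5f1, the 2 highest and 2 lowest of each list per comparison, the 5 nearest profiles of Dppa2 and Tdh, and Gapdh, Actb, Hprt and Tbp; Gldc, Igf2bp1 and the flanking genes were added after their values were seen. The samples' groups and dyes come from the labels. The alternatives tried were other background corrections, normalizations, filters, probe rules and readings.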

Additional observations from a re-analysis of the deposited data

How the results depend on the processing

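Counts of the 10 genes at 2-fold moved by at most 2 under any alternative. Nr5a2-EGFP over EGFP, with none higher, had 1 higher (Tdh) with the Nr5a2-EGFP reading of the other array. The count lower in that comparison, 1, was 0 with median centring in place of loess, 3 with the software's log ratio and 2 with the authors' deposited table. For Oct4-EGFP over EGFP, the 1 higher became 2 with median centring and 2 with Cy3 levels alone. The cause was not tested. The other counts stayed within 1.5 times: the 4 lower for Oct4-EGFP over EGFP were 5 with the software's ratio and the deposited table and 3 with the mean over probes or with saturated genes left out, the last by construction. Of 295 alternative values for single genes, 280 moved by less than the SD of repeat readings (0.30), 15 by more, and 0 reversed a ratio that had reached 2-fold. Over all genes, median centring put the median of Nr5a2-EGFP over EGFP at 0.16 and the share of higher genes among those at 2-fold at 63.5%, against 39.8%; it called 1556 genes higher there (869 here). With it, the small medians of Nr5a2-EGFP over EGFP turned positive for the let-7 (0.11), trophoblast (0.07), threonine (0.07), pluripotency factor (0.06), other ES cell (0.06) and germline (0.03) lists. With no filter on background, the trophoblast median of Oct4-EGFP over EGFP was -1.49. The software's ratio called 1784 genes higher and 2127 lower over EGFP (869 and 1317 here), 1958 and 2600 over Oct4-EGFP (1185 and 1856), and 2593 and 2466 for Oct4-EGFP over EGFP (1708 and 1542), and the deposited table gave 1785 and 2115, 2044 and 2535, and 2447 and 2505 for these. No paired analysis was possible because each pair of clones has 1 array, and both arrays share a slide, so no slide block could be fitted. Saturation limits Sall4 and Dppa5a.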

Other observations

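Dppa2, Dppa3 and Dppa4 are linked in the mouse embryo to the genes of the 2-cell stage and of the germ line. The lists for these followed Dppa2 only in part. For Oct4-EGFP over EGFP, the genes at 2-fold in both lists were lower, as Dppa2 was, but the medians were small (-0.15 and 0.02). Of 12 measured 2-cell-like genes, 1 was at least 2-fold higher and 6 lower in Nr5a2-EGFP over EGFP (median -0.85, but -1.44 with the software's ratio or the deposited table, -1.16 without saturated genes and -0.41 with no filter on background), with Zscan4c at -3.54. Over Oct4-EGFP, 0 were higher and 3 lower (median -0.55), with Zscan4c at -2.93, where Dppa2 had 1.11. For Oct4-EGFP over EGFP 0 were higher and 2 lower (median -0.15). Zscan4 copies are near-identical, so reads of single members are uncertain.

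Germline genes held both directions. Dazl, an RNA-binding protein of germ cells, had -2.09 for Oct4-EGFP over EGFP and -1.61 over EGFP, and Sycp3, of the meiotic chromosome axis, had 1.61 over Oct4-EGFP and -1.22 for Oct4-EGFP over EGFP. In all, 0 of 20 were higher and 3 lower over EGFP (median -0.13), 2 of 19 higher and 2 lower over Oct4-EGFP (-0.09), and 0 of 20 higher and 3 lower for Oct4-EGFP over EGFP (0.02). Primitive endoderm genes gave 0 of 12 higher or lower over EGFP (-0.27), 2 of 13 higher and 1 lower over Oct4-EGFP (0.23), and 1 of 13 higher and 4 lower for Oct4-EGFP over EGFP (-0.49), where Lama1 (1.70) and Dab2 (-2.64) lay on opposite sides.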
